A study of Oryzias latipes with 7 samples.

Results

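Medaka (Oryzias latipes) is a small freshwater teleost that lays eggs every day. The interval from 14 h to 8 h before spawning in its ovarian follicles was described by setting the 8 h array against the 14 h array. These are 2 of the 7 arrays of the series, chosen by the developmental stage in their labels. The fish were kept in reproductive condition at 27 °C with 14 h of light and 10 h of dark, and the labels name no treatment, strain or mutation for any group, nor the number of females. Each array holds RNA pooled from 100 follicles of 1 stage (47, 35, 32, 23, 14, 8 or 2 h before spawning), taken from the largest and second-largest follicles of dissected ovaries and hybridised with 1 dye (Cy3). Each time point has 1 array, so every difference below is a value without a test, and precision is limited by the small number of arrays.

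A follicle is an oocyte enclosed by granulosa and theca cells. In teleosts, luteinizing hormone makes these somatic cells produce a progestin, and the progestin acts on the oocyte, which resumes meiosis and breaks down its germinal vesicle. The full-grown oocyte is a large store of maternal RNA, so RNA of a whole follicle mixes that store with RNA of the surrounding cells. Fewer cells of a type and less RNA per cell cannot be told apart in it. The series title names oocyte maturation among the stages sampled, but no label places the 14 h or the 8 h array in it. The probe set identifiers matched 0 entries of the medaka reference gene table, so markers of oocyte, granulosa or theca cells were not checked. Groups of probe sets are therefore described, a probe set being the probes that report one designed sequence.

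The values are RMA intensities on a linear scale, compared on the log2 scale, where a difference of 2 is 4-fold. Of 63698 probe sets, 47773 had a mean log2 level over the 7 arrays above the 25th percentile (6.24, an intensity of 75.8) and were kept. Array medians over all probe sets ran from 599 to 703, and the 8 h array had the lowest, 599 against 682 at 14 h. The 8 h array number has 8 digits, as have those of 35 and 32 h, while the 14, 2, 23 and 47 h numbers have 6. For the pair, array-number series and time cannot be told apart. The deposited series table holds the same values but puts 5 of the 7 arrays at another time. It puts the array filed under 14 h at 32 h and the one filed under 23 h at 35 h. The array filed under 32 h stands there at 14 h, that under 35 h at 2 h and that under 2 h at 23 h. The 8 h array is unmoved, so by that table the pair compared here is 8 h against 32 h. In that table the 6-digit arrays stand at 47, 35, 32 and 23 h and the 8-digit ones at 14, 8 and 2 h. Each array keeps here the time of the sample it was filed under.

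The 8 h level was 4-fold or more above the 14 h level in 1442 probe sets (3.02% of those kept) and 4-fold or more below it in 1627 (3.41%). The log2 differences ran from -7.48 to 9.12. The median absolute log2 difference was 0.54, and 95% of probe sets differed by less than 2.21. Between 32 h and 35 h, the pair of arrays nearest in filed time and of 1 number series, the same figures were 0.24 and 1.02. The pair of 8 h and 14 h is further apart and crosses the number series, so the pairs are not alike. The series table puts the 32 h and 35 h arrays at 14 h and 2 h. There 194 probe sets were 4-fold higher at 32 h and 175 lower. Either way, 4-fold differences numbered 3069 for 8 h against 14 h, 950 for 14 h against 23 h and 3943 for 2 h against 8 h. The 8 h array also differed from the 32 h and 35 h arrays of its own series in 3207 and 3574 probe sets. The limit cut through a continuous distribution, with 359 probe sets higher by 1.8 to 2 on the log2 scale and 267 by 2 to 2.2, and 571 and 393 lower by those amounts.

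**Figure D1:**
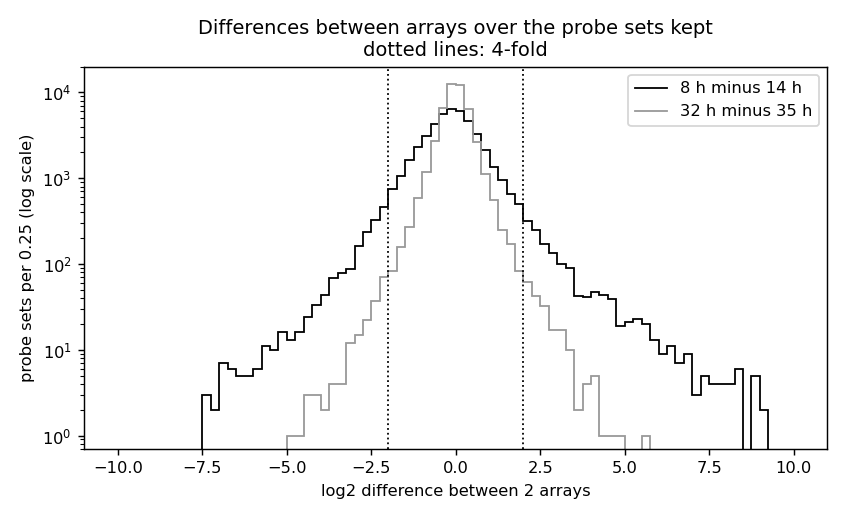
Number of probe sets (log axis) by log2 difference, for 8 h minus 14 h (black) and 32 h minus 35 h (grey), with dotted lines at 4-fold. The black distribution is wider, with 1442 probe sets beyond the upper line and 1627 beyond the lower one, against 194 and 175 for the grey one.

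Which direction held more probe sets depended on how the arrays were aligned. The median log2 difference of all kept probe sets was -0.11, and the medians of the kept probe sets differed by -0.13. After each array was centred on that median, 1670 probe sets (3.5%) were higher at 8 h and 1357 (2.84%) lower. The share of higher among all 4-fold differences was 47.0% as deposited and 55.2% after centring. Centring on the median of all probe sets, which was chosen after seeing the data, gave 1769 higher and 1256 lower, a share of 58.5%. It removes a difference of -0.19 between the array medians, although the median log2 difference over all probe sets was only 0.0042. It thus moved the median log2 difference of the kept probe sets to 0.079, which adds to the share of higher. Among the largest differences as deposited, 294 probe sets were 16-fold or more higher and 157 lower by as much, and 69 and 28 of these were at least 64-fold apart.

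The 4-fold differences lay mostly among probe sets of low and middle level. The kept probe sets were divided by mean level into 10 groups of equal size. In the lowest group, 6.36% were higher at 8 h and 6.63% lower. In the highest group these shares were 0.335% and 0.167%, or 16 and 8 probe sets. Differences between 32 h and 35 h ran the same way, with 1.97% in the lowest group and 0.0419% in the highest. In each group the 95th percentile of the absolute log2 difference between 8 h and 14 h (2.95 in the lowest, 1.26 in the highest) exceeded that between 32 h and 35 h (1.40 and 0.48). The excess of lower over higher was widest in group 3 from the bottom, with 227 higher and 340 lower as deposited and 263 and 290 after centring.

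**Figure D2:**
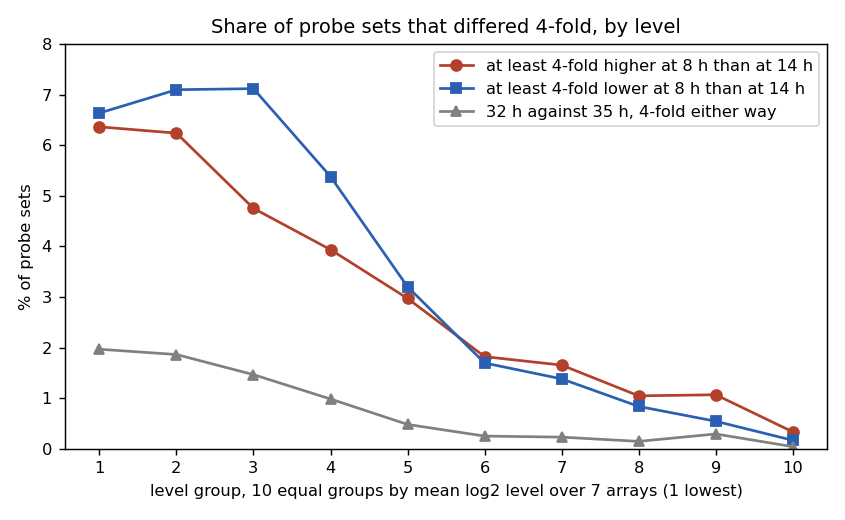
Percentage of probe sets at least 4-fold higher (red circles) or lower (blue squares) at 8 h than at 14 h, and 4-fold apart either way between 32 h and 35 h (grey triangles), by group of mean log2 level. All 3 lines are lower in the top groups than in the bottom ones, and both lines for 8 h lie above the grey one in every group.

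Many of the 4-fold differences started or ended near the filter threshold. Those higher at 8 h had a median intensity of 1772 at 8 h, against 170 at 14 h, where 382 of them (26.5%) were at or below the filter threshold. At 8 h, 118 of the 1442 were among the top 5% of that array. Those lower had a median of 129 at 8 h, with 568 (34.9%) at or below the threshold, against 950 at 14 h, where 30 of 1627 were in the top 5%. The shares of all kept probe sets at or below the threshold are not given here. Choosing a 4-fold difference itself favours a low value on 1 of the 2 arrays. With the filter on the other 5 arrays, 1354 probe sets were higher and 1556 lower. The threshold is not a detection limit, and folds that start or end near it are poorly determined.

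The earlier arrays separated 3 histories in each direction. The first took in probe sets whose 8 h level lay at least 4-fold outside all 4 arrays from 47 h to 23 h as well. It held 551 (38.2%) of those higher at 8 h and 302 (18.6%) of those lower. The second took in other probe sets whose median of 47, 35 and 32 h lay at least 4-fold from 14 h on the side of the 8 h value. It held 247 (17.1%) of those higher and 470 (28.9%) of those lower. The 35 and 32 h arrays share the 8-digit number series of the 8 h array, and the 14 h array does not. Time and array-number series are thus mixed in this history. The remaining 644 and 855 met neither limit. After centring on the kept medians these shares were 37.4% and 18.7% for the first history and 15.8% and 30.6% for the second.

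The group of 551 had a flat median until 14 h and a high one at 8 h. The median intensity was 151, 188, 180, 188 and 211 from 47 h to 14 h in time order, 4250 at 8 h and 1748 at 2 h. Both this group and that of 302 were chosen by the 8 h level against every array from 47 h to 14 h. The step at 8 h is therefore part of the choice. Not every member of the 551 was flat before. In 19 of the 551, the median of 47, 35 and 32 h itself lay at least 4-fold above 14 h. Other departures, such as a rise before 8 h, were not counted. The quartiles of the log2 difference 47 h minus 14 h in the 551 were -0.84 and 0.37. The group of 302 had a median of 1230, 889, 1006, 920 and 703 from 47 h to 14 h in time order, 63.6 at 8 h and 204 at 2 h.

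The group of 470 was chosen to be high at 14 h and low both at 8 h and in the median of 47, 35 and 32 h. That shape is therefore part of the choice. Its median intensity was 158, 100, 128, 505 and 2056 from 47 h to 14 h in time order, then 172 at 8 h and 188 at 2 h. The median at 8 h was thus close to those at 47 to 32 h, which the choice did not ask of each member. The group of 247 was chosen the other way and had a median of 1135, 1495, 1131, 367, 111, 1114 and 705 at 47, 35, 32, 23, 14, 8 and 2 h. The remaining 644 had a median of 247, 430, 371, 230, 179, 1022 and 443 at those times. The remaining 855 had 609, 363, 416, 727, 794, 146 and 374. Among the arrays from 47 h to 8 h, those with 8-digit numbers had the highest medians in the 644 and the lowest in the 855. A history that calls on the 14 h array shares that array with the choice of members, so these counts describe shape and are no separate evidence.

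**Figure D3:**
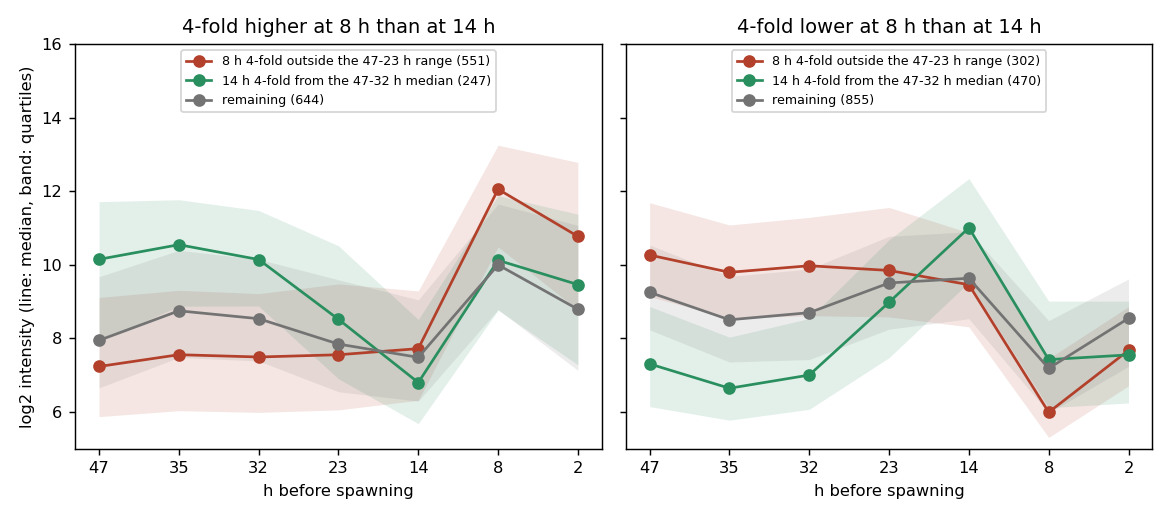
Median log2 intensity (lines) and quartiles (bands) at the 7 time points, evenly spaced in time order, for the 3 histories among probe sets higher (left) and lower (right) at 8 h. The red groups (551 and 302) were chosen for stepping outside their earlier range at 8 h. The medians of the green groups (247 and 470) at 8 h lie near their medians at 47 to 32 h, which the choice did not ask of each member. The 35, 32 and 8 h arrays have 8-digit numbers and the others do not.

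The probe sets were followed to 2 h, whose array shares the number series of the 14 h array. Of those higher at 8 h, 588 (40.8%) were at least 4-fold above 14 h at 2 h, 258 (17.9%) were 2- to 4-fold above, 528 (36.6%) were within 2-fold and 68 (4.72%) were at least 2-fold below. Of those lower at 8 h, 721 (44.3%) were at least 4-fold below 14 h at 2 h, 358 (22.0%) were 2- to 4-fold below, 486 (29.9%) were within 2-fold and 62 (3.81%) were at least 2-fold above. Among all kept probe sets, 4.31% lay 4-fold or more above 14 h at 2 h and 4.88% lay 4-fold or more below. The comparisons of 8 h and of 2 h share the 14 h array, so a stray 14 h value counts in both. In 65 of those higher, 14 h lay at least 4-fold below all 4 earlier arrays, and 33 of these (50.8%) were still 4-fold above 14 h at 2 h. In 137 of those lower, 14 h lay at least 4-fold above all 4, and 121 of these (88.3%) were still 4-fold below it. The share of all kept probe sets with such a 14 h level is not given here.

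These probe sets also differed between 2 h and 8 h. Among all kept probe sets, 4.4% were 4-fold or more higher at 2 h than at 8 h and 3.86% lower by as much. Among those higher at 8 h, 853 (59.2%) moved less than 4-fold, 481 (33.4%) came back by at least 4-fold and 108 (7.49%) went at least 4-fold higher still. Among those lower at 8 h, 1128 (69.3%) moved less than 4-fold, 396 (24.3%) came back and 103 (6.33%) went lower still. The 8 h value that chose these probe sets is used again here, so a stray 8 h value counts as a move back. The shares over all kept probe sets carry no such choice and are not a like background. After centring on the kept medians, 626 of 1670 higher (37.5%) and 644 of 1357 lower (47.5%) remained at least 4-fold from 14 h at 2 h, where 4.37% and 4.81% of all kept probe sets were that far above and below. With the values of the series table, 20 of 1698 higher (1.18%) and 51 of 1509 lower (3.38%) remained so. The arrays it gives as 14 h and 2 h are those filed under 32 h and 35 h, between which 0.366% and 0.406% of all kept probe sets lay that far above and below. The lists also differ, with 711 of the 1442 higher (49.3%, and 41.9% of the table's list) and 477 of the 1627 lower (29.3%, and 31.6%) shared.

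The share that was kept grew with the size of the difference. Of probe sets 4- to 8-fold higher at 8 h, 27.3% of 876 were still at least 4-fold above 14 h at 2 h. The share was 47.4% of 272 for 8- to 16-fold, 68.4% of 225 for 16- to 64-fold and 95.7% of 69 for 64-fold or more. For probe sets lower at 8 h it was 35.0% of 1191, 63.1% of 279, 79.1% of 129 and 92.9% of 28 in the same classes. A small difference has less room above the 4-fold limit, so the classes do not face the same test. As a measure free of that limit, the median part of the log2 difference left at 2 h was 37.7%, 53.8%, 79.0% and 87.1% for those higher and 60.0%, 77.6%, 89.6% and 92.9% for those lower. That part still uses the 14 h array in both differences and the 8 h value that set the class, so stray values there affect it.

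**Figure D4:**
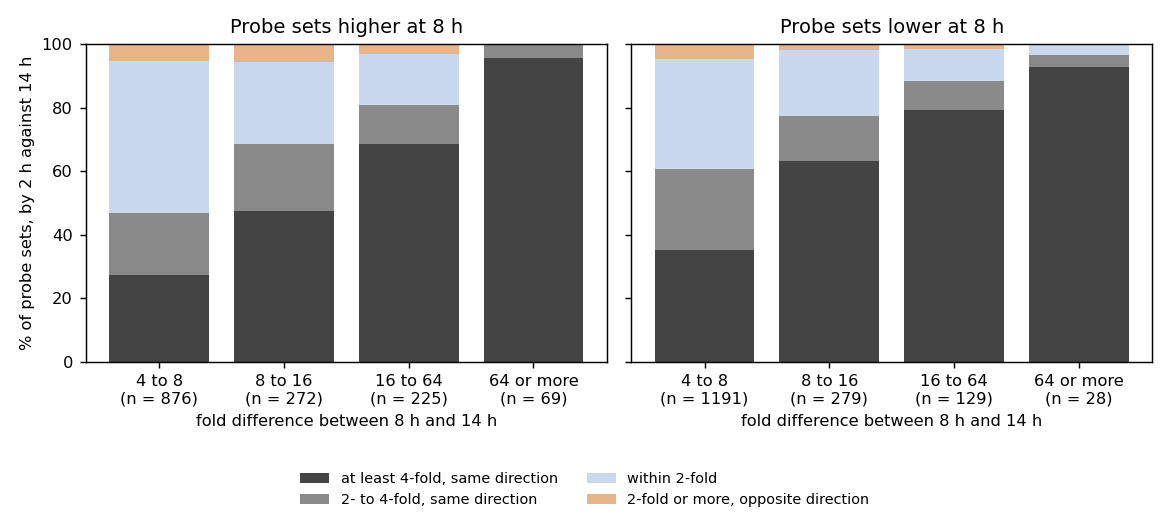
Percentage of probe sets by their difference between 2 h and 14 h (stacked shades), for classes of fold difference between 8 h and 14 h, higher at 8 h (left) and lower at 8 h (right). The dark part, still at least 4-fold in the same direction, grows from 27.3% to 95.7% on the left and from 35.0% to 92.9% on the right.

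Persistence also differed by history. Of the 551 probe sets above their earlier range at 8 h, 316 (57.4%) were still at least 4-fold above 14 h at 2 h. The same held for 116 of the 247 of the second history (47.0%) and 156 of the remaining 644 (24.2%). Among those lower at 8 h the order was another one, with 131 of 302 (43.4%), 336 of 470 (71.5%) and 254 of 855 (29.7%). Of the 470, 62 (13.2%) were back within 2-fold of 14 h at 2 h, as were 102 (33.8%) of the 302. These shares hold for probe sets already chosen as lower at 8 h. The second history and the outcome at 2 h both use the 14 h array, so a stray 14 h value raises the share kept there. The histories also differed in size. The median log2 difference between 8 h and 14 h was 3.61, 2.92 and 2.34 among those higher, in the order given. Among those lower it was -2.91, -2.98 and -2.33. No difference in persistence between histories was tested.

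The 2 h and 23 h arrays, which entered the choice of the probe sets only through the filter on the mean level, were also compared. Both belong to the 6-digit series. Over all kept probe sets the median log2 difference of 2 h minus 23 h was -0.0065. Probe sets higher at 8 h had a median log2 difference of 1.13 between 2 h and 23 h (quartiles 0.0022 and 3.17), and 1083 of 1442 (75.1%) were higher at 2 h. Of them 534 (37.0%) were higher by 4-fold or more and 62 (4.30%) lower by as much, where 4.41% and 4.91% of all kept probe sets were. Those lower at 8 h had a median of -1.21 (quartiles -2.67 and -0.10), and 1252 of 1627 (77.0%) were lower at 2 h. Of them 570 (35.0%) were lower by 4-fold or more and 56 (3.44%) higher by as much. Without the filter, so that these arrays had no part in the choice, the medians were 0.85 and -1.04. With the values of the series table they turned, to -1.47 and 1.81, but what is then measured is the array filed under 35 h minus that filed under 2 h.

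A difference between the array-number series ran along with the result, above all among probe sets lower at 8 h. The 35 and 32 h arrays (8 digits, mean time 33.5 h) were set against the 47 and 23 h arrays (6 digits, mean time 35 h), which entered the choice only through the filter. The median log2 gap was -0.04 over all kept probe sets, 0.41 over those higher at 8 h and -0.83 over those lower. A gap of at least 2-fold in the direction of the 8 h difference was found in 398 (27.6%) of those higher, where 5.31% of all kept probe sets had one, and in 681 (41.9%) of those lower, where 6.99% had. By history, such a gap was found in 8.35% of the 551, 48.6% of the 247 and 36.0% of the 644 among those higher. Among those lower it was found in 10.9% of the 302, 57.2% of the 470 and 44.3% of the 855. The histories were defined with these same arrays, so their shares are not free of that choice. The part of the series in these differences was not tested, and a course that turned between 47 h and 23 h would give such a gap too. The mean times above hold for the filed times only. By the series table the 8-digit arrays of the gap stand at 2 and 14 h and the 6-digit ones at 47 and 35 h. The gap would then be a difference of late minus early arrays, which was not tested either.

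Subtracting each probe set's gap from the 8 h value, which was chosen after seeing the data, left 1289 probe sets 4-fold or more higher and 1095 lower by as much. The higher list shared 892 probe sets with the 1442 (61.9% of these and 69.2% of the list). The lower list shared 659 with the 1627 (40.5% of these and 60.2% of the list). Then 527 higher and 423 lower probe sets were still 4-fold from 14 h at 2 h. The median difference between 2 h and 23 h was 0.94 over those higher and -0.26 over those lower. The gap includes the 23 h array, so here that array took part in the choice. This choice favours high 23 h values in the higher list and low ones in the lower list, which works against both medians. The change in these medians therefore does not measure the part of the series.

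The design of the array was examined last. Identifiers begin with K_OLAT (16940 kept) or OLAT (30833 kept), a difference whose meaning the files do not give. Of K_OLAT probe sets 4.15% were higher and 4.21% lower at 8 h, against 2.40% and 2.96% of OLAT probe sets. K_OLAT probe sets had lower levels (median of the mean log2 level 9.73, against 11.05), but their share of 4-fold differences was also larger in 8 of the 10 groups of level. Nearly all probe sets (99.3%) have 6 probes. Of the 329 kept with fewer, 20 (6.08%) were higher and 12 (3.65%) lower. Of the 47444 kept with 6 probes, 1422 (2.997%) were higher and 1615 (3.404%) lower. The shares of lower were thus close, and the larger share of higher rests on 20 probe sets and was not tested. Probe sets with the same 7 values as another numbered 0, but several probe sets may still report 1 gene, so counts of probe sets are not counts of genes.

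Individual courses follow for 4 probe sets given by identifier. They have the largest differences among those with both levels above the threshold, for each direction and each outcome at 2 h (390 and 534 candidates still 4-fold apart, 394 and 267 back within 2-fold). Each has 6 probes. These are extremes and not typical members. The median log2 difference between 8 h and 14 h was 2.71 over all those higher and -2.52 over all those lower.

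Probe set OLAT0001S00024780 had the largest kept difference upward among those with both levels above the threshold. Its intensities at 47, 35, 32, 23, 14, 8 and 2 h were 1789, 3873, 1087, 70.3, 79.2, 36421 and 4274. It was low at 23 h and 14 h only, and at 8 h it stood above every other array. Its 14 h level lay just above the filter threshold and its 23 h level below it, so the fold is poorly determined. The log2 difference between 8 h and 14 h was 8.84 (8.98 after centring on the kept medians, 6.31 with the gap subtracted and 5.07 with the values of the series table).

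Probe set OLAT0001S00007725 came back. Its intensities at 47, 35, 32, 23, 14, 8 and 2 h were 1919, 1811, 1267, 2295, 92.0, 5666 and 70.6. It alternated between low and high over the last 3 arrays. Its 14 h level lay near the filter threshold and its 2 h level below it, so this fold too is poorly determined. The log2 difference was 5.94 (6.08 after centring), and 2.16 with the values of the series table.

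Probe set K_OLAT0000S00019824 had the largest kept difference downward among those with both levels above the threshold. Its intensity lay between 11612 and 24598 in the 5 arrays from 47 h to 14 h, with 20863 at 14 h, and was 148 at 8 h and 1664 at 2 h. The 8 h and 2 h arrays were both below all earlier ones. The log2 difference was -7.14 (-7.00 after centring, -6.29 with the values of the series table).

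Probe set K_OLAT0000S00022128 was low at 8 h and back by 2 h. Its intensities at 47, 35, 32, 23, 14, 8 and 2 h were 1804, 136, 2417, 10257, 13595, 403 and 11471. Among its 3 arrays with 8-digit numbers are the lowest value and the second lowest. The log2 difference was -5.08 (-4.94 after centring), -2.17 with the gap between series subtracted and -2.58 with the values of the series table.

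**Figure D5:**
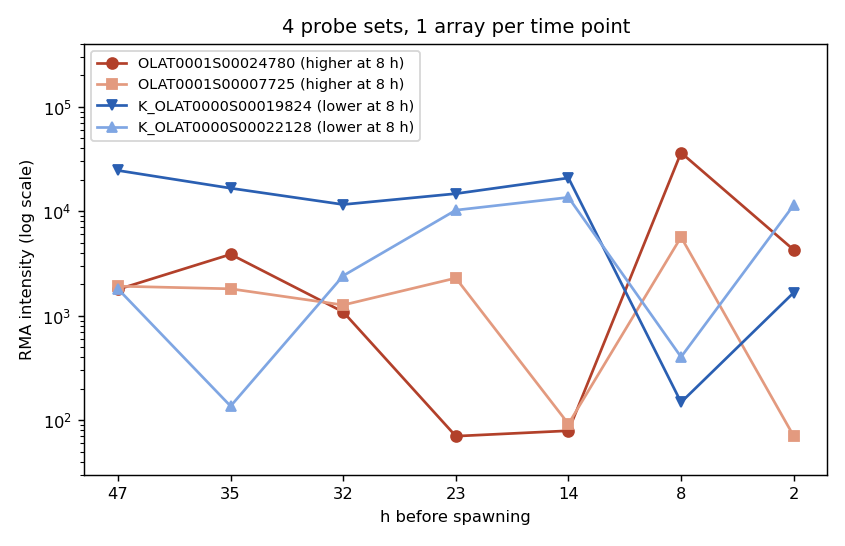
RMA intensity (log axis) of 4 probe sets at the 7 time points, evenly spaced in time order, with 1 array per point. OLAT0001S00024780 and OLAT0001S00007725 are high at 8 h, at 36421 and 5666, and K_OLAT0000S00019824 and K_OLAT0000S00022128 are low, at 148 and 403.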

How the data were processed

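Total RNA of pooled follicles was labelled with Cy3 by random priming and hybridised to NimbleGen arrays, per the labels' protocols. The authors deposited RMA intensities on a linear scale, per the submitters' processing notes. The sources used here do not give its version. Probe numbers are listed in each deposited file, beside a further value of unstated scale that was not used.

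Each array was assigned by its developmental stage label. The description of the 2 h sample reads 5 h instead. Values were log2-transformed and filtered as stated above, and differences, counts and medians were computed with Python 3.11.15, pandas 2.3.3 and numpy 2.4.6. The classification was tested on simulated data with planted shifts far beyond the 4-fold limit, for the outcomes still 4-fold and within 2-fold only. That check does not show how the classes hold near the limit. No test between time points was possible with 1 array each. The members, groups and lists were chosen with earlier results of these data known. Lists of marker and pathway genes needed gene names and were not applied. The rule for the 4 named probe sets is given beside them. Alternatives were centring, quantile normalization, removal of a running median in 20 bins of level, other filters, an offset of 64, 2- and 8-fold limits, the series table's values and the 2 added ones named above.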

Additional observations from a re-analysis of the deposited data

How the results depend on the processing

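Over 12 alternatives, 65 of 109 values kept their direction and stayed close to the reported one (counts within 1.5 times, medians within 0.1 on the log2 scale, single probe sets within 0.51), 39 moved and 5 reversed. With the values of the series table, whose lists share 711 and 477 probe sets with the reported ones, 20 higher and 51 lower probe sets were still 4-fold from 14 h at 2 h, and the medians of 2 h minus 23 h reversed to -1.47 (higher at 8 h) and 1.81 (lower). The median of all differences (8 h minus 14 h) reversed to 0.024 after centring on the kept medians, to 0.079 after centring on all probe sets and to 0.0042 without the filter, and was -0.0020 with the running median removed. Counts in the order higher, lower, higher still at 2 h and lower still at 2 h were 546, 524, 244 and 283 with the filter at the 50th percentile, where fewer probe sets are counted. They were 4907, 7394, 1978 and 3191 with a 2-fold limit and 566, 436, 280 and 233 with an 8-fold limit. There the choice and the outcome at 2 h both use the limit named, so these values count another quantity and do not measure robustness. The offset of 64 left 917 lower, and subtracting the gap between series left 423 lower still at 2 h. The share of higher among the differences counted, 47.0% as deposited, was 39.9% with the 2-fold limit and 56.5% with the 8-fold limit. It was 52.6% with the offset and 54.6% with the running median removed. The median of 2 h minus 23 h over those higher was 1.02 after quantile normalization, 0.85 without the filter, 1.26 with the offset, 0.54 and 2.45 with 2- and 8-fold limits, 1.002 after centring on all probe sets and 0.94 with the gap subtracted. Over those lower it was -1.04 without the filter, -2.17 with the 50th percentile, -1.49 with the offset, -0.70 and -1.55 with 2- and 8-fold limits and -0.26 with the gap subtracted. With the gap subtracted, the 23 h array took part in the choice. Where no construction shows the cause, the cause was not tested. No paired analysis was possible because each time point has 1 array. Signals near the filter threshold limit the folds of low probe sets.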
